A study of Homo sapiens with 7 samples.

Results

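Repeatedly hit SP1 peaks are those of the SP1 ChIP-seq peaks of HCT116 cells that collected 5 or more transposon positions of an SP1 fusion transposase, inside the peak or within 1 kb of its edges. They were chosen by the positions of both fusion libraries added together, so a position found in both libraries counted once for each, and 796 of 27015 peaks (2.95%) met this rule. HCT116 is an established human colon carcinoma line. In it the piggyBac transposase was expressed either in its wild-type form (WT_PB, 3 libraries) or fused to the transcription factor SP1 (SP1_PB, 2 libraries), and cells that carried a transposon were selected with G418. The peak list comes from 1 ChIP-seq sample made with an SP1 antibody, and no replicate of it was used. The labels do not say that libraries came from separate cultures, so the spread between them may be technical.

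PiggyBac inserts its transposon at TTAA sites. When a DNA-binding protein is fused to the transposase, insertions gather near the places that the protein visits and stay in the genome as a record, which is why they are called calling cards. SP1 is a zinc finger factor that binds GC-rich sequences, many of them in the promoters of genes that most cells use. Coordinates are those of hg18. Peak edges are counted from 1, while insertion positions are printed as deposited, without a statement of whether they count from 0 or 1, so that they may be off by 1 bp against the peaks. The peak list names no genes and no hg18 annotation or sequence was used here, so the peaks are named by position alone.

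The SP1_PB libraries held 18856 and 14467 distinct positions, and the WT_PB libraries 58850, 67423 and 57419. Within 1 kb of the 796 peaks lay 2632 positions of SP1_PB replicate 1, 14.0% of that library (95% Wilson interval 13.5 to 14.5), and 2285 of SP1_PB replicate 2, 15.8% (15.2 to 16.4). The WT_PB libraries placed 471, 524 and 388 positions there, 0.800%, 0.777% and 0.676% of their totals. These few peaks thus held 33.8% and 37.8% of all SP1_PB positions near any peak, but 9.82%, 10.1% and 8.45% of those of the WT_PB libraries. The SP1_PB values describe the choice of the peaks and were not tested, and intervals cover counting error only. The same rule applied to pairs of WT_PB libraries, which are larger, gave 187 to 234 peaks. With each pair thinned to the numbers of positions of the SP1_PB libraries, it gave on average 2.80, 3.40 and 2.35 peaks over 20 draws. Thinning also breaks up positions beside each other and positions found in both libraries of a pair, which were common at the 796 peaks in SP1_PB. The thinned counts are therefore no matched background, and the difference was not tested.

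Most members sat just above the threshold, and a few carried far more. Of the 796 peaks 291 had exactly 5 positions, 179 had 6, and 106 had 10 or more, and the median was 6. Just outside the rule stood 458 peaks with 4 positions. Peaks on either side of the threshold looked alike: those with 5 had a median width of 1155 bp and a median score of 607, and those with 4 a median width of 1107 bp and a median score of 561. Their mean WT_PB counts were 1.58 and 1.60. The score is the peak caller's own value per peak and serves only to rank peaks within the list.

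Members were not independent of each other. Where members lie close together their windows overlap and the same positions count for each. The 796 peaks formed 711 separate regions. Of these 631 held 1 member, 76 held 2 and 4 held 3 or more, up to 4, so that 165 members shared their window with another. Counted once each, the positions at members were 4917 rather than the 5466 obtained by adding the peaks.

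The SP1_PB libraries agreed on which members were hit. Positions of both libraries lay at 779 members (97.9%), while 13 had positions of replicate 1 only and 4 of replicate 2 only. The median was 3 positions in each library, and the counts differed by at most 2 at 574 members. Replicate 1 had more positions at 400 members, replicate 2 at 282, and at 114 the counts were equal. Replicate 1 gave 53.5% of the positions at members and 56.6% of all SP1_PB positions. A single library rarely reached the threshold: 192 members had 5 or more in replicate 1, 129 in replicate 2, 53 in both, and 528 in neither. Since the rule adds the libraries, a peak with positions in both passes more easily, and this agreement is a description.

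**Figure D1:**
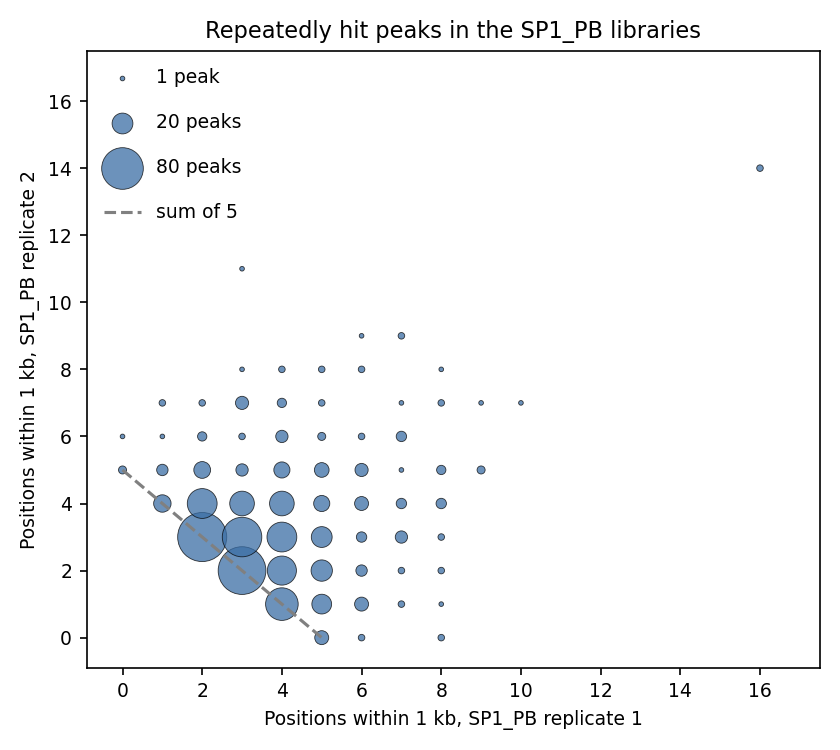
Positions within 1 kb of each of the 796 repeatedly hit peaks in SP1_PB replicate 1 (horizontal axis) and SP1_PB replicate 2 (vertical axis), where the area of a circle stands for the number of peaks with that pair of counts and the dashed line marks a sum of 5. Most peaks lie close to the line with 2 or 3 positions per library, the lone circle at 16 and 14 is a pair of neighbouring peaks on chromosome 17, and few peaks lie on an axis.

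Much of the count at members came from positions beside each other and from positions found in both libraries. In SP1_PB replicate 1, 28.1% of the positions at members lay within 3 bp of the position before them, against 10.99% at other peaks and 8.88% away from peaks. In replicate 2 these shares were 32.6%, 13.2% and 12.8%. In the WT_PB libraries they were 7.43% to 11.9% at members and 6.36% to 8.70% at other peaks. Nearly all such steps were of 1 bp, 724 of 740 at members in replicate 1 and 739 of 746 in replicate 2. TTAA sites cannot start 1 bp apart, and whether these neighbours are separate insertions was not tested. Clustered positions enter the rule directly, so their high share at members is in part set by the choice.

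Counted as sites, with neighbours within 3 bp merged in each library, 381 of the 796 peaks kept 5 or more. With both libraries pooled before merging, the median member had 3 sites, 146 members had 5 or more, and 44 rested on a single site. At 121 members 3 or more exact positions occurred in both libraries, at 128 members none did. Of the SP1_PB replicate 2 positions at members 47.7% also occurred in replicate 1, against 22.7% at other peaks and 11.5% away from peaks. Seen from replicate 1 the shares were 41.5%, 16.5% and 8.78%. A shared position counts for both libraries and so raises a peak towards the threshold. Pairs of WT_PB libraries, which played no part in the choice, shared 10.2% to 14.6% of their positions at members, 6.69% to 9.57% at other peaks and 2.27% to 3.70% elsewhere. Members were thus also places where wild-type libraries met at the same base more often, although less so than the SP1_PB libraries, a difference that was not tested.

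Taken over all positions, those at members had more reads than those at other peaks in both SP1_PB libraries. The same held among positions found in both libraries, while among positions found in only 1 of them it held in replicate 1 alone. The median was 13 reads per position at members, 7 at other peaks and 5 away from peaks in SP1_PB replicate 1, and 24, 17 and 11 in replicate 2. Members thus held 21.3% and 24.3% of the reads of these libraries. Positions found in both libraries had medians of 22 reads at members, 9 at other peaks and 12 away from peaks in replicate 1, and 58, 36 and 28 in replicate 2. Positions found in 1 SP1_PB library only had medians of 7, 6 and 4 in replicate 1, while in replicate 2 members were the lowest, with 8 against 14 at other peaks and 9 away from peaks. Since positions in both libraries count for each, the rule favours peaks that hold them, and the depth at members is not independent of it. In the WT_PB libraries the medians at members were 5, 9 and 8, at other peaks 5, 6 and 5, and away from peaks 3, 4 and 3. The medians at members were thus above those at other peaks in WT_PB replicates 2 and 3 and equal to them in WT_PB replicate 1.

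The rule can be tested only in a library that did not choose the peaks, and the held-out library placed many more positions at the chosen peaks than WT_PB did. The 192 peaks with 5 or more positions in SP1_PB replicate 1 took 3.95% of the positions of SP1_PB replicate 2 (571 positions), against 0.231%, 0.220% and 0.223% of the WT_PB libraries, whose mean was 0.225% ± 0.00595 (SD, n = 3). The ratio was 17.6 (95% interval 15.5 to 19.95), and the same ratio at all other peaks was 4.90. With the libraries exchanged, the 129 peaks chosen in replicate 2 took 2.74% of replicate 1 (516 positions) against 0.137% ± 0.0122 of the WT_PB libraries (SD, n = 3), a ratio of 20.03 (17.2 to 23.3), and the ratio at all other peaks was 4.95. Both intervals take positions as independent, so positions 1 bp apart may make them too narrow. With neighbours within 3 bp merged, the ratios were 21.6 (16.9 to 27.4) and 23.4 (16.2 to 34.0). In both directions the held-out library lay above every WT_PB library. The exact permutation test over the 4 libraries (two-sided) gave p = 0.25 each time, the smallest that 4 libraries allow, so it cannot pass 0.05.

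Peak by peak, the held-out library was also higher at most chosen peaks that could be tested. Each peak with at least 3 positions over the held-out and WT_PB libraries was tested with Fisher's exact test (two-sided, Benjamini-Hochberg adjusted over all such peaks), which covers counting error only. Of the 192 peaks chosen in replicate 1, 161 could be tested and 103 were called higher in replicate 2 at an adjusted p under 0.05, while over all tested peaks 608 of 2965 (20.5%) were. Of the 129 chosen in replicate 2, 116 could be tested and 89 were called higher in replicate 1, with a background of 736 of 3237 (22.7%). Neighbouring peaks that share positions were tested, adjusted and counted as separate peaks, so the calls are not independent. A pair on chromosome 17 was called on the same 14 positions of replicate 2. Of the chosen peaks 136 and 104 were higher at an unadjusted Fisher p under 0.05. This was not counted over all peaks, so no background share stands beside it and nothing is read from it. The minimum of 3 includes the held-out positions. A peak without WT_PB positions was thus tested only with 3 or more held-out positions, and every such chosen peak was called. With every peak that had any position tested, 93 of 188 and 77 of 128 chosen peaks were called. Over all peaks it was then 508 of 9410 and 632 of 9854.

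These calls depended on the counting of positions and on the test. In a count chosen after the values were seen, with neighbours merged and every site within 3 bp of the choosing library left out, of the held-out and the WT_PB libraries alike, the ratios at chosen peaks were 16.8 (10.7 to 26.6) and 28.4 (14.7 to 54.5), against 4.51 and 4.72 at other peaks. They then rested on 35 and 29 held-out sites at 59 and 23 chosen peaks. Of these peaks 12 and 5 could be tested and 0 and 4 were called. Over all tested peaks 29 of 1651 and 160 of 2060 were. The unadjusted Fisher p was under 0.05 at 4 and 4 chosen peaks, again without a count over all peaks to set them against. The quasi-likelihood test of edgeR measures the spread between the WT_PB libraries and takes the lone SP1_PB library to vary like them. With it 0 and 2 chosen peaks were called, and over all tested peaks 0 of 2965 and 2 of 3237. Its unadjusted p was under 0.05 at 116 and 94 chosen peaks. Without such a count over all peaks this has no background, and nothing is read from it.

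The held-out count followed the count in the choosing library step by step. Peaks with no position in SP1_PB replicate 1 had on average 0.0831 positions in replicate 2, those with 1 had 0.538, those with 2 had 1.15, those with 3 had 1.66, those with 4 had 2.43 and those with 5 or more 3.40. Leaving out positions that occur in both libraries, the means were 0.0831, 0.378, 0.586, 0.759, 1.1005 and 1.36. Of the peaks with 5 or more positions in replicate 1, 93.2% had a position in replicate 2, and 70.8% had one at a base that replicate 1 did not have. Only exact matches were left out, so a position 1 bp from one of the other library still counted. The stricter count given above, without sites within 3 bp of the choosing library, left 35 and 29 held-out sites. The pooled WT_PB counts, scaled to the total of replicate 2, were 0.0315 at peaks with no position in replicate 1 and 0.176 at those with 5 or more. The mean in the reverse direction ran from 0.142 to 4.37, and to 1.87 without shared positions. The classes also differed in width and score. Peaks with no position in replicate 1 had a median width of 787 bp and a median score of 363. Those with 5 or more had medians of 1143.5 bp and 572. A wider peak has a longer window in both libraries, and the part of this in the trend was not tested.

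**Figure D2:**
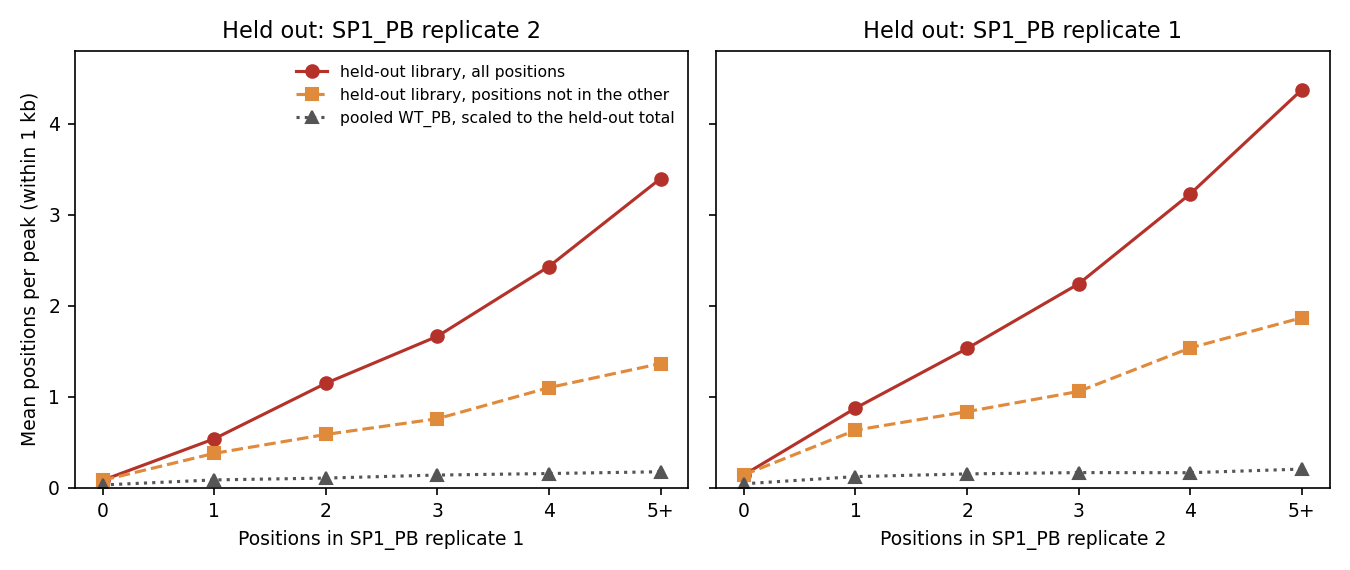
Mean number of positions per peak in the held-out SP1_PB library (vertical axis, within 1 kb) for peaks grouped by their positions in the other SP1_PB library (horizontal axis), with all positions (circles), without positions found in the choosing library (squares) and for the pooled WT_PB positions scaled to the held-out total (triangles). The held-out mean reaches 3.40 in replicate 2 and 4.37 in replicate 1 at peaks with 5 or more, and 1.36 and 1.87 without shared positions. The WT_PB values stay at 0.206 or below. Shared means the same base, so positions 1 bp apart count as not shared.

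Members were also denser in positions of the wild-type libraries, which the rule did not use. The WT_PB libraries had 190, 211 and 156 positions per Mb at members and 60.2, 64.9 and 58.5 per Mb at other peaks, with 1 kb on each side. The ratio was 3.02 ± 0.311 (SD, n = 3 libraries) and lay between 2.67 and 3.25, above 1 in all 3 libraries. The exact sign-flip permutation test (two-sided) gave p = 0.25, the smallest that 3 libraries allow. Some SP1_PB positions that counted for the rule were also WT_PB positions. At members these were 16.1% in SP1_PB replicate 1 and 15.0% in replicate 2, against 14.2% and 13.7% at other peaks and 13.0% and 10.5% away from peaks. With positions found in more than 1 library left out, which left 195 members, the ratio was 2.04. Per peak, the pooled WT_PB count averaged 1.82 at members and 0.528 at other peaks. It was 0 at 247 members (31.0%) and at 72.6% of other peaks, and reached 12 at members and 21 at other peaks.

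The more wild-type positions a peak had, the more often it was a member. Of 19287 peaks without a WT_PB position 1.28% were members, of those with 1 it was 4.65%, with 2 it was 7.59%, with 3 it was 10.7%, with 4 it was 11.2%, and of the 538 peaks with 5 or more it was 15.8%. The reverse share was lower: 85 members, 10.7% of them, had 5 or more WT_PB positions. The difference in wild-type density was also seen among peaks of like score or width, with peaks ranked and cut into 4 classes of equal size. In the lowest score class the WT_PB density at members was 5.50 ± 0.842 times that at other peaks (SD, n = 3), and then 4.04 ± 0.214, 3.11 ± 0.491 and 1.99 ± 0.129 with rising score. By width it was 5.84 ± 1.88 in the narrowest class and 2.64 ± 0.0895 in the widest (SD, n = 3), and no single library gave a ratio below 1.84 in any class.

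Members were wider and had higher scores than other peaks. The median width was 1172 bp (interquartile range 832 to 1595) against 817 bp (639 to 1138), and the median score 600 (388 to 860) against 381 (272 to 588). Width enters the rule, since a wider peak has a longer window in which positions are counted. Of the 796 members 403 (50.6%) came from the highest score class and 74 (9.30%) from the lowest. Members were 1.096%, 1.79%, 2.93% and 5.97% of the peaks in the 4 classes of rising score, and 1.33%, 1.54%, 2.86% and 6.06% in those of rising width. Of the 1004 peaks of 2 kb or wider 90 (8.96%) were members.

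In the narrowest, the second and the widest class of width the share of members rose with each step of score, while in the third it was 1.74%, 2.15%, 1.957% and 4.34%. Within a score class the share did not rise steadily with the width. Among the widest peaks members made up 3.70%, 4.56%, 5.15% and 7.40% from the lowest to the highest score. Among the narrowest they made up 0.741%, 1.39%, 3.72% and 10.2%. In all 4 score classes the narrowest peaks were members more often than those of the next width class, at 0.741% against 0.660%, 1.39% against 0.781%, 3.72% against 1.88% and 10.2% against 4.49%. The narrow peaks of the highest score class were few, 10 members among 98, with a 95% Wilson interval from 5.64% to 17.8%. Narrow peaks also had more WT_PB positions than the next width class in each score class, with 0.314 against 0.269, 0.441 against 0.320, 0.782 against 0.550 and 0.959 against 0.917 per peak, and the part of this in their membership was not tested.

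**Figure D3:**
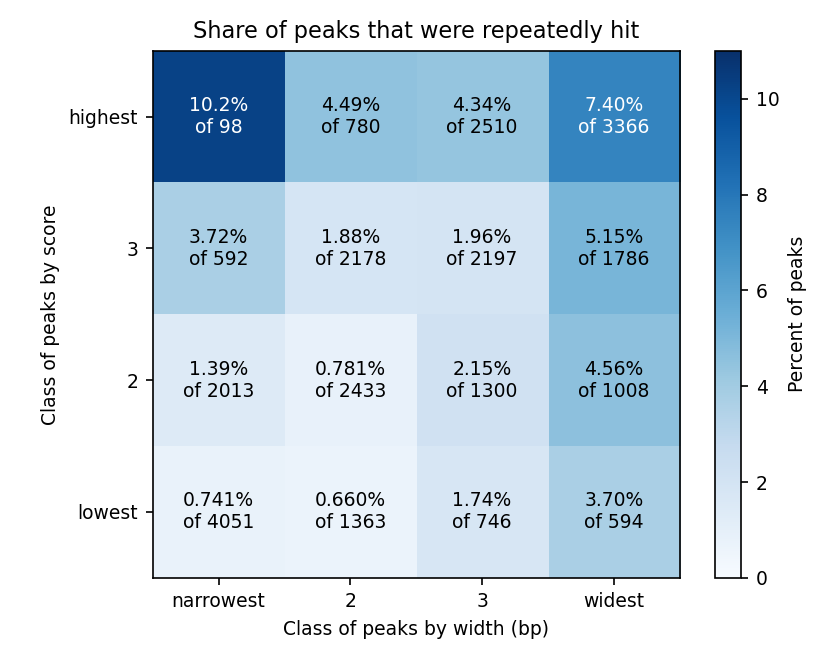
Share of peaks that were repeatedly hit, for peaks cut into 4 classes of equal size by score (vertical axis) and by width in bp (horizontal axis), with the number of peaks in each cell. The share goes from 0.741% among narrow peaks of low score to 7.40% among wide peaks of high score, and is 10.2% in the cell of 98 narrow peaks of high score.

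Within a member, SP1_PB positions were sparser at the peak centre than on either side of it. In both libraries the positions per 100 bp were lower within 100 bp of the centre than from 300 to 700 bp away. At members the central level was 0.501 times the level of these shoulders in replicate 1 and 0.571 times in replicate 2. At other peaks it was 0.669 and 0.620 times. The wild-type libraries had a deeper dip, with 0.247, 0.314 and 0.364 times at members and 0.253, 0.169 and 0.223 times at other peaks, although the central counts at members were 10, 15 and 12 positions. The SP1_PB libraries lay above all WT_PB libraries at members and at other peaks.

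**Figure D4:**
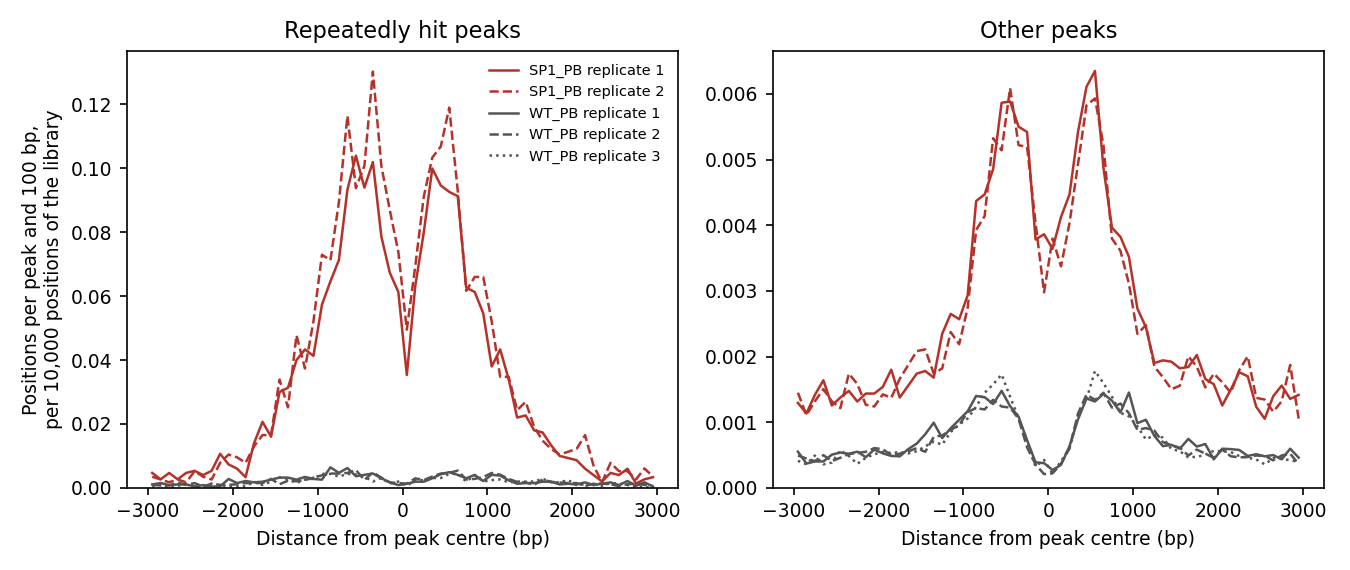
Positions per peak (vertical axis) in bins of 100 bp by distance from the peak centre (horizontal axis, bp), scaled to the same total for every library, at the 796 repeatedly hit peaks and at the 26219 other peaks (separate vertical scales), for the 2 SP1_PB libraries (red) and the 3 WT_PB libraries (grey). All 5 curves dip at the centre; the heights of the SP1_PB curves at the repeatedly hit peaks follow from the choice of these peaks.

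Of the SP1_PB positions at members 55.8% and 58.5% lay inside the peak itself, and at other peaks 51.2% and 50.2%. Peaks made up 41.5% of the windows' length at members and 34.8% at the others. For the WT_PB libraries the inside shares were 35.7%, 37.2% and 37.1% at members and 24.5%, 22.98% and 22.3% at others, so wild-type positions lay inside peaks less often than length alone gives in all 3 libraries. At 158 members every SP1_PB position lay inside the peak, and at 154 none did.

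Local crowding of peaks differed little between members and the rest. The nearest other peak was at a median of 8.55 kb from a member (interquartile range 0.709 to 33.8 kb) and 6.92 kb from other peaks (1.5 to 30.1 kb). Within 50 kb a median of 3 further peaks lay near a member and 4 near other peaks. No further peak lay within 50 kb of 165 members (20.7%), against 17.7% of other peaks. Members were 3.44% of the peaks without a neighbour within 50 kb, 3.42% of those with 1 to 2, 2.61% with 3 to 5, 2.29% with 6 to 10 and 2.97% with 11 or more. The WT_PB count went down along the same order, from 1.06 to 0.224 per peak. Of the 2443 peaks with no other peak within 100 kb 76 (3.11%) were members. The 106 members with 10 or more positions had closer neighbours, at a median of 5.37 kb, and the part of shared windows in this was not tested.

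Chromosome 19 gave the most members, 124 of its 2393 peaks (5.18%, 95% Wilson interval 4.36 to 6.14). It held 15.6% of members and 8.86% of peaks, while its WT_PB count per peak, 0.328, was below the 0.566 of all peaks. Chromosome 17 followed with 76 members (3.50%) and chromosome 1 with 62 (2.46%). Shares above the 2.95% of all peaks were also found on chromosomes with fewer peaks, with 4.29% of 350 peaks on chromosome 18, 4.05% of 1112 on chromosome 12, 4.01% of 823 on chromosome 4 and 3.57% of 980 on chromosome 5. Chromosome 22 had 15 members among 1079 peaks (1.39%, 0.844 to 2.28) and chromosome 16 had 34 among 1686 (2.02%, 1.45 to 2.80). The intervals of chromosomes 12 and 19 lay wholly above the value of all peaks, and those of chromosomes 16 and 22 wholly below it. Neighbouring members share positions, so these intervals are too narrow. Chromosome X had 5 members and chromosome Y none among 14 peaks, with a 95% Wilson interval of up to 21.5%.

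**Figure D5:**
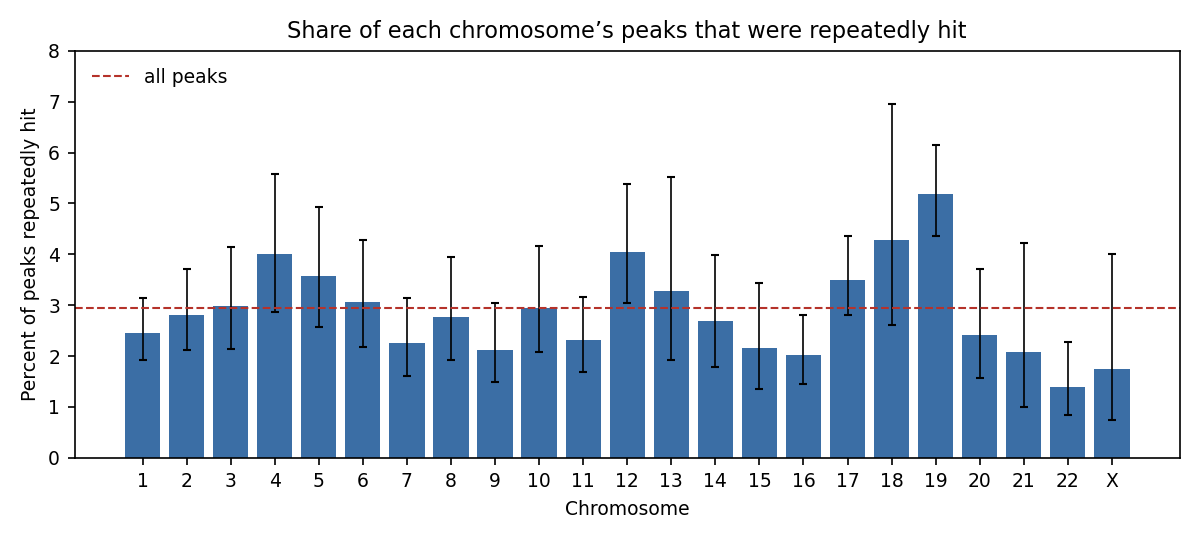
Percent of the SP1 peaks of each chromosome that were repeatedly hit (bars), with 95% Wilson intervals and the share over all peaks, 2.95% (dashed line). Chromosome 19 stands at 5.18% and chromosome 22 at 1.39%; chromosome Y, with 0 of 14 peaks, is not drawn.

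The members with the most positions showed how differently a high count can be made up. The highest count, 30, belonged to a pair of neighbours on chromosome 17, at 73644730 to 73647197 (score 289) and 73647784 to 73648994 (score 1710), which shared all their positions, 16 of replicate 1 and 14 of replicate 2. None of them lay inside the first peak. In replicate 1, 10 of the 16 formed a run from 73647402 to 73647413, and in replicate 2, 7 of the 14 formed a run from 73647408 to 73647415. Merged within 3 bp, each library had 5 sites here, and both together 6. The WT_PB libraries had 1, 1 and 0 positions.

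The peak on chromosome 19 from 45801223 to 45802249 (score 1213) was next, with 10 positions in replicate 1 and 7 in replicate 2 and no WT_PB position in any library. Its 17 positions came from 7 and 4 sites, 5 positions were found in both libraries, and 10 lay inside the peak. The reads were uneven, with 64 in replicate 1 and 1262 in replicate 2, of which the position 45801949 alone had 730. The neighbour at 45802651 to 45803815 had 6 and 8 positions, none inside the peak and none of WT_PB, and shared part of them.

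On chromosome 4 the peak from 88074777 to 88076211 (score 764) had 9 and 7 positions at 6 and 5 sites. Here the wild-type libraries also inserted, with 2 positions each. The peak on chromosome 8 from 8122156 to 8124096 had the third highest score of all peaks, 2993, and 8 positions in each SP1_PB library. Its WT_PB counts were 3, 4 and 1, so wild-type and fusion positions were both frequent. On chromosome 19 from 10843396 to 10844420 (score 608) there were 7 and 9 positions, of which 1 lay inside the peak, and a single WT_PB position. Its neighbour stood 8 bp away.

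Members without any wild-type position carried up to 17 SP1_PB positions. Beside the neighbours on chromosome 19 given above, the peak on chromosome 19 from 59174622 to 59175642 (score 484) had 7 and 9 positions at 4 and 6 sites. That from 7890929 to 7892691 (score 809) had 7 and 7 at 5 sites in each library. All 4 of these lay on chromosome 19. In the latter, 1 position, 7890743, had 2174 of the 2267 reads of replicate 1, while in replicate 2 the leading position, 7890532, had 262 of 426.

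The 4 members with the highest scores had between 6 and 16 SP1_PB positions. After the chromosome 8 peak came chromosome 17 from 73821397 to 73822498 (score 2832) with 3 and 4 positions and WT_PB counts of 1, 0 and 1. Next stood chromosome 17 from 59560406 to 59561920 (score 2574) with 5 and 1 positions and no WT_PB position. Then came chromosome 4 from 1551805 to 1553220 (score 2462) with 6 and 5 positions at 5 and 4 sites and no WT_PB position. Of its 11 positions 9 lay inside the peak.

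The 4 members listed for the most wild-type positions were not among the 6 with the most SP1_PB positions. Over members as a whole, the mean WT_PB count was 1.58 at those with exactly 5 SP1_PB positions and 2.19 at those with 10 or more. Chromosome 7 from 115951834 to 115954084 had WT_PB counts of 6, 2 and 4 and SP1_PB counts of 6 and 4. Chromosome 10 from 125840863 to 125843509 had WT_PB counts of 3, 4 and 5, and 5 positions of SP1_PB replicate 1 at 2 sites with none of replicate 2. Chromosome 8 from 94997494 to 94999589 had 5, 5 and 0 against 5 and 2. Chromosome 2 from 58127063 to 58128171 had 2, 4 and 3 against 7 and 4, with no position of either group inside the peak.

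The libraries disagreed most at 3 members, and 2 of these were single runs. Chromosome 2 from 96561288 to 96561882 and chromosome 7 from 98304814 to 98306249 each had 8 positions in replicate 1 and none in replicate 2. In each case the 8 positions were consecutive bases, 96561796 to 96561803 and 98306172 to 98306179, and made 1 site after merging. Neither had a WT_PB position. The third, on chromosome 18 from 75106360 to 75107672 (score 957), had 3 positions in replicate 1 and 11 in replicate 2. These came from 3 and 9 sites, 13 of the 14 lay inside the peak, and the pooled libraries gave 10 sites. No member had more pooled sites. The peaks on chromosome 11 from 111302539 to 111303483 and on chromosome 22 from 27756481 to 27757220, singled out after their values were seen, also had 10, from 12 and 13 positions, with 1 and 2 WT_PB positions.

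Members could be solitary, narrow or very wide. The most isolated, on chromosome 21 from 16023723 to 16025038, stood 1782 kb from any other peak and had 4 and 2 positions, with no WT_PB position. That on chromosome 11 from 58102497 to 58104003, 527 kb from its nearest neighbour, had 2 and 3 positions and WT_PB counts of 4, 0 and 2. That on chromosome 3 from 106567875 to 106569446, 500.3 kb from its neighbour, had 4 and 3 positions at 4 and 3 sites and WT_PB counts of 0, 4 and 1.

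The narrowest member, 296 bp on chromosome 18 from 27777279 to 27777574, had 3 and 5 positions, all of them outside the peak. The next, 330 bp on chromosome 8 from 28282969 to 28283298, had 4 and 3, of which 1 lay inside. Both scored near the bottom of the list, at 204 and 213. The widest, 6678 bp on chromosome 16 from 84201000 to 84207677, had 7 and 3 positions, all inside, and none found in both libraries. The second widest, 4734 bp on chromosome 17 from 71382046 to 71386779, had 3 in each library, 2 of them at the same bases, and 5 of the 6 lay inside the peak.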

How the data were processed

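Each line of an insertion file gives a chromosome, a position and how many reads fell there. The authors mapped reads to hg18 by bowtie 0.12.7, as the submitters' processing notes list it, and these read counts are as deposited and not normalized. Strand is absent from the files. Lines at 1 position of a library were merged, and codes 23 and 24 were taken as X and Y. Peaks carry a MACS score as the authors deposited it, from 1 sample per the deposited readme, and sources used here do not give the MACS settings or control. Deposited expression values were left out, since no hg18 annotation ties genes to peaks.

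Positions within 1 kb of each peak were counted with Python 3.11.15, pandas 2.3.3 and SciPy 1.17.1, and edgeR 4.0.16 served as the alternative test. The per-peak test was tested on simulated counts, and the counting was compared with a direct count on the deposited positions. The simulated counts were drawn independently for each peak. They held no neighbouring positions, shared positions or overlapping windows, so they do not show how the test behaves with these. The members, lists and tests were chosen with earlier results of these data known. Regions named in the text are the 6 members with the most SP1_PB positions, the 4 with the highest score, the 4 with the most WT_PB positions, the 4 with the most SP1_PB positions among those without WT_PB positions, the 3 with the largest difference between the SP1_PB libraries, the 3 farthest from another peak, the 2 narrowest and the 2 widest. The files used carry no molecular identifiers, so PCR copies may count as reads. Alternatives varied the distance, merging, shared positions, read minimum, threshold, libraries and test.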

Additional observations from a re-analysis of the deposited data

How the results depend on the processing

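The number of repeatedly hit peaks depended on the counting. It was 299 with positions inside peaks only, 381 with positions within 3 bp merged, 146 with both SP1_PB libraries pooled before such merging (chosen after seeing the data), 195 without positions found in more than 1 library, 4 with 1 position per 1 kb cluster, 1254 at 4 or more positions and 505 at 6 or more. With 1 SP1_PB library at the same threshold it was 129 to 192, as fewer positions were summed. It stayed within 1.5 times with 500 bp, 2 kb or at least 2 reads per position. Median width stayed between 1134 and 1363 bp and median score between 576.5 and 702 over these definitions, the 1 kb clusters and single libraries aside.

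Calls in SP1_PB replicate 2 at peaks chosen in replicate 1 are given with the called and tested over all peaks in brackets. With all positions they were 103 of 161 tested (608 of 2965). Inside peaks they were 26 of 31 (392 of 786), and with merging 35 of 54 (209 of 2461). Without positions in more than 1 library they were 15 of 22 (349 of 1720), and with at least 2 reads 66 of 96 (384 of 2150). At thresholds of 4 and 6 they were 191 of 318 and 63 of 85 (608 of 2965 each). With edgeR they were 0 of 161 (0 of 2965). With merging and without sites of the choosing library they were 0 of 12 (29 of 1651). In the other direction, 89 of 116 (736 of 3237) became 24 of 30 inside peaks (465 of 880) and 18 of 23 with merging (403 of 2770). Without positions in more than 1 library they were 7 of 13 (356 of 1960), and with at least 2 reads 51 of 65 (519 of 2395). At thresholds of 4 and 6 they were 168 of 234 and 47 of 58 (736 of 3237 each). With edgeR they were 2 of 116 (2 of 3237). With merging and without sites of the choosing library they were 4 of 5 (160 of 2060). Without 1 WT_PB library the calls were 104 to 105 and 84 to 87. Over all peaks they were then 606 to 610 of 2044 to 2202 tested, and 706 to 727 of 2369 to 2502. Held-out ratios kept their direction in every alternative run: for replicate 2 they were 31.4 inside peaks, 21.6 within 500 bp, 13.6 within 2 kb, 21.6 with merging, 29.1 without positions in more than 1 library and 21.2 at 6 positions, and for replicate 1 they were 24.9 inside peaks, 23.4 with merging and 28.4 with merging and without sites of the choosing library. Without 1 WT_PB library they were 17.4 to 17.9 and 19.3 to 21.0. At all other peaks the same ratio inside peaks was 11.19 for replicate 2 and 11.05 for replicate 1, against 4.90 and 4.95 within 1 kb. In the other alternatives it lay between 4.18 and 5.83. The rise of the ratio inside peaks was thus also seen at peaks that were not chosen. With 1 kb clusters no peak had 5 positions in a single library, so no held-out value was obtained.

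The WT_PB density ratio was 5.41 inside peaks, 4.33 with 1 kb clusters, 2.04 without positions in more than 1 library, and 2.91 to 3.63 without any 1 library. No paired analysis was possible because each held-out test has 1 SP1_PB library and the density ratio uses WT_PB only, so the groups compared share fewer than 2 replicate numbers.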
